A study of Homo sapiens with 8 samples.

Results

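Genes of the TGF-β, BMP and activin pathway were compared between spheroids of cisplatin-resistant OVCAR-8R and of parental OVCAR-8 ovarian carcinoma cells. The 56 genes were chosen by name as ligands, receptors, SMADs, antagonists and direct targets of this pathway. Of these, 55 were measured by a probeset annotated to 1 gene, out of 18417 genes measured in that way, and the probeset with the highest mean stood for each gene. BMPR1A had no such probeset, and BMP5 was left out of the test because its signal lay in the lowest quartile in both lines, which left 54 members.

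The 4 OVCAR-8R arrays (called OVCAR-8C in the sample labels) and the 4 OVCAR-8 arrays hold RNA from spheroids about 300 μm across, grown in 2% agarose molds in DMEM with 10% serum. Rising cisplatin concentrations, with a maximum of 5 μM, were used to select OVCAR-8R from OVCAR-8, which the labels give as its sensitive parent. OVCAR-8R is 1 derived line, so drug resistance and any other change during its derivation cannot be told apart. A lower signal in a line can likewise mean fewer expressing cells or less RNA per cell, which cannot be told apart. Sample titles speak of biological replicates without saying at which step these were separated. The p-values therefore measure only how far these 8 arrays spread, which may be partly technical.

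Ligands of this family bind pairs of type I and type II receptor kinases at the cell surface, and the activated type I receptor phosphorylates SMAD proteins that enter the nucleus with SMAD4. TGF-β and activin act mainly through SMAD2 and SMAD3, and BMPs through SMAD1, SMAD5 and SMAD9. In carcinoma cells TGF-β is known for growth arrest early on and for mesenchymal change later, while BMPs induce the ID genes and are held in check outside the cell by antagonists such as gremlin and noggin.

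Of the 54 members tested, 15 rose and 5 fell in OVCAR-8R spheroids, and 34 were not called. A call needed both a 2-fold difference or more and a Benjamini-Hochberg adjusted p under 0.05 in limma. The called share was 37.0% of the members, against 16.7% of all 15931 genes tested. The members were chosen with earlier results of these data known, and the effect of that choice on the share was not tested. Among 69 other pathway genes tested, described below, 20.3% were called. Higher calls made up 27.8% of the members and 8.37% of all genes, and lower calls 9.26% of the members and again 8.37% of all genes. The median log2 difference was 0.44 over the members and -0.01 over all genes. GREM1 and ID2 had the widest differences among the members, at 4.09 and -3.98 on the log2 scale. These are counts within the fit of the whole table, and the list itself was not tested. The arrays of the 2 lines did not overlap for 56.8% of all genes tested. A lack of overlap, given below for single genes, is thus common in these data.

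**Figure D1:**
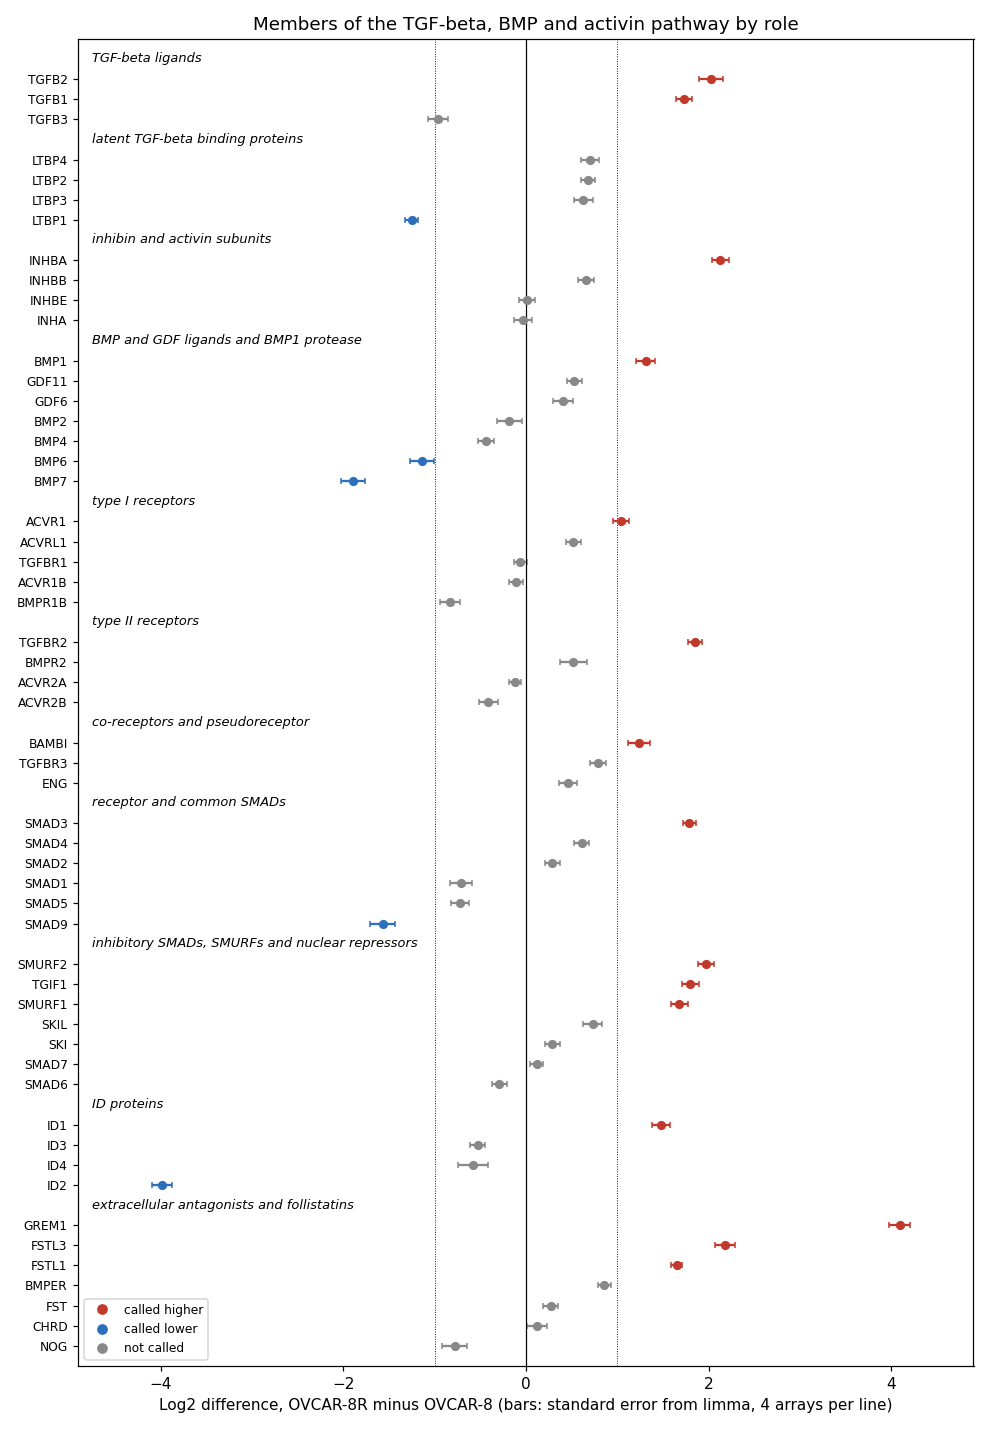
Log2 difference (OVCAR-8R minus OVCAR-8, horizontal axis) of each of the 54 members tested, grouped by role, with the standard error from limma as bars. Red members were called higher, blue members lower, and dotted lines mark 2-fold. GREM1 lies at 4.09 and ID2 at -3.98.

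Both lines are labelled ovarian adenocarcinoma. Of 7 epithelial marker genes, 5 rose in OVCAR-8R (EPCAM, KRT7, KRT8, KRT18 and MUC1, against 8.37% of all genes), with a median log2 difference of 1.90 over the 7. CDH1 (-0.23, lower without overlap) and KRT19 (0.08) were not called. Of 7 ovarian and Müllerian marker genes, PAX8 and MSLN rose by 3.77 and 3.83 and MECOM fell by 2.45, while its other probeset gave -0.41 and was not called. WT1 (-0.86) and EMX2 (-0.69) lay lower without overlap but under 2-fold, and MUC16 and SOX17 each had a difference of 0.07. Of the 14 epithelial and ovarian markers, none lay in the lowest quartile of signal in OVCAR-8, and 1, MECOM, did so in OVCAR-8R. In OVCAR-8, PAX8 (6.51), MSLN (6.46), KRT7 (6.36), MUC1 (6.20), EPCAM (5.88), CDH1, KRT19, MUC16 and EMX2 lay below the array medians. KRT8, KRT18, WT1, MECOM and SOX17 lay above them. Endothelial PECAM1, CDH5 and VWF also lay outside the lowest quartile in both lines, so a signal outside it does not show expression. Of 4 leukocyte markers measured, PTPRC, CD3E and LYZ lay in that quartile in both lines, and CD14 had a mean of 5.72 in OVCAR-8R against 5.49, a difference of 0.23 that was not called. Of 5 fibroblast markers tested, LUM fell by 1.15 and the others were not called, and FAP lay in the lowest quartile in both lines. The 4 endothelial markers had differences from 0.11 to 0.16, and none was called. The lines thus differed in lineage markers as well as in the pathway, and the part of that difference in the results was not tested. Line identity rests here on the labels and on the methods, which report authentication of the OVCAR-8 lines by ATCC. These expression values do not settle identity. The median log2 signal of the arrays ran from 6.67 to 6.73. Over the probesets kept, OVCAR-8R arrays 1 and 3 deviated from their line's mean together (r = 0.427), as did arrays 2 and 4 (r = 0.484).

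Among the TGF-β ligand genes, TGFB1 and TGFB2 rose in OVCAR-8R and TGFB3 did not pass the 2-fold threshold. TGFB2 had log2 signals of 8.34, 8.72, 8.35 and 8.76 on the 4 OVCAR-8R arrays and of 6.43, 6.67, 6.27 and 6.68 on the 4 OVCAR-8 arrays. The lowest OVCAR-8R array lay above the highest of OVCAR-8, and the difference was 2.03 (standard error 0.13, adjusted p = 1.03e-06 from limma), or 4.09-fold. TGFB1, the most widely expressed isoform in most tissues, had signals of 8.53, 8.69, 8.73 and 8.70 in OVCAR-8R and of 6.96, 6.75, 6.98 and 7.05 in OVCAR-8. The lines did not overlap, with a difference of 1.73 (0.09, adjusted p = 1.52e-07). TGFB3 went the other way, from 6.25 to 6.56 in OVCAR-8 and from 5.27 to 5.73 in OVCAR-8R. Its difference of -0.96 (0.11, adjusted p = 5.02e-05) was just under 2-fold, and it passed 2-fold without OVCAR-8R array 1 (-1.04) or without OVCAR-8 array 3 (-1.03).

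The latent TGF-β binding proteins tether the inactive TGF-β complex to the matrix. LTBP1 was the only one of 4 to be called, with signals of 6.49, 6.47, 6.59 and 6.40 in OVCAR-8R and of 7.77, 7.63, 7.80 and 7.74 in OVCAR-8. It fell by 1.25 (0.07, adjusted p = 4.96e-07). LTBP2, LTBP3 and LTBP4 had differences of 0.68, 0.63 and 0.70, with adjusted p from 7.07e-05 to 0.000344 in limma. In each, OVCAR-8R lay above OVCAR-8 without overlap, as it did for 27.3% of all genes. LTBP1 thus lay lower in OVCAR-8R where the other members of its family lay higher by less than 2-fold. With treat, which tests for a difference over 2-fold, the call of LTBP1 ended.

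Of the activin and inhibin subunit genes, INHBA rose and the others were not called. INHBA encodes the βA subunit that forms activin A. Its signals were 9.92, 10.22, 9.92 and 10.17 in OVCAR-8R and 7.99, 8.02, 7.85 and 7.87 in OVCAR-8, with no overlap. The difference was 2.13 (0.09, adjusted p = 6.56e-08), or 4.37-fold. INHBB, the βB subunit gene, had a difference of 0.66 (0.09, adjusted p = 0.00019). INHA, the inhibin α subunit gene, and INHBE had differences of -0.03 (0.10) and 0.01 (0.09), and in both the arrays of the 2 lines overlapped.

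Of 7 genes tested among the BMP and GDF ligands with the BMP1 protease, 2 fell (28.6%, against 8.37% of all genes). BMP1 was the 1 that rose (14.3%, against 8.37%), and the falls were in BMP7 and BMP6. BMP7 had signals of 5.78, 5.60, 6.06 and 5.53 in OVCAR-8R and of 7.50, 7.56, 7.54 and 7.92 in OVCAR-8. It fell by 1.89 (0.13, adjusted p = 1.69e-06), a 3.70-fold difference, and was lower on each OVCAR-8R array than on each OVCAR-8 array. BMP6 fell by 1.14 (0.13, adjusted p = 4.24e-05), from signals of 7.40, 7.78, 7.83 and 7.90 in OVCAR-8 to 6.44, 6.7, 6.79 and 6.44 in OVCAR-8R. Its lines did not overlap either, but with treat its call ended. BMP2 and BMP4, a closely related pair of ligands, had differences of -0.18 (0.14) and -0.44 (0.09, adjusted p = 0.00283). GDF6 and GDF11 had differences of 0.41 and 0.53. BMP5 signals were between 4.18 and 4.24 in OVCAR-8R and between 4.29 and 4.64 in OVCAR-8.

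BMP1 is named with the BMPs but encodes a protease that processes procollagens and the BMP antagonist chordin. Its main probeset had signals of 8.16, 8.51, 8.15 and 8.45 in OVCAR-8R and of 6.99, 6.94, 7.05 and 7.04 in OVCAR-8, and rose by 1.31 (0.10, adjusted p = 2.19e-06). The gene's other probeset gave 0.33 (0.09) and was not called. The mean of both gave 0.82, and with that value or with treat the call ended. The probesets therefore disagree on the size of the BMP1 difference.

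TGFBR2 and ACVR1 rose among the 9 receptor kinase genes tested, against 8.37% of all genes, and none was called lower, although BMPR1B and ACVR2B passed the adjusted p with differences under 2-fold. TGFBR2, the type II receptor that binds TGF-β, had signals of 9.15, 9.36, 9.31 and 9.29 in OVCAR-8R and of 7.43, 7.34, 7.59 and 7.33 in OVCAR-8. The difference was 1.85 (0.08, adjusted p = 7.86e-08), or 3.61-fold. Its type I partner TGFBR1 had signals from 9.27 to 9.44 in OVCAR-8R and from 9.34 to 9.46 in OVCAR-8. The TGFBR1 arrays of the 2 lines overlapped, with a difference of -0.06 (0.07, adjusted p = 0.532) that turned to 0.03 after cyclic loess.

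ACVR1, a type I receptor for BMPs also known as ALK2, lay at the threshold. Its signals were 8.03, 8.38, 8.11 and 8.35 in OVCAR-8R and 7.22, 7.12, 7.19 and 7.17 in OVCAR-8, and the difference was 1.04 (0.09, adjusted p = 7.37e-06). The lines did not overlap, but the call ended with treat, without OVCAR-8R array 2 (0.99), without array 4 (just under the threshold), and with OVCAR-8R arrays 1 and 3 only (0.90). BMPR1B, another BMP type I receptor gene, had a difference of -0.83 (0.11, adjusted p = 0.00015) and ACVRL1 (ALK1), a receptor typical of endothelium, one of 0.52 (0.08). The activin receptor genes ACVR1B, ACVR2A and ACVR2B had differences of -0.11, -0.12 and -0.41, and BMPR2, the BMP type II receptor gene, one of 0.52 (0.15). Apart from TGFBR2 and ACVR1, the receptor kinase genes among the members tested differed by less than 2-fold.

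Co-receptors bind ligand without a kinase of their own. BAMBI, a pseudoreceptor that lacks the kinase domain and dampens TGF-β and BMP signals, had signals of 8.56, 8.23, 8.68 and 8.24 in OVCAR-8R and of 7.32, 7.06, 7.15 and 7.21 in OVCAR-8. It rose by 1.24 (0.12, adjusted p = 1.13e-05), a call that ended with treat. TGFBR3 (betaglycan), which presents TGF-β2 to the kinase receptors, had a difference of 0.79 (0.09, adjusted p = 6.28e-05), and ENG (endoglin) one of 0.46 (0.10, adjusted p = 0.00407). In all 3 genes, each OVCAR-8R array was above each OVCAR-8 array, as was so for 27.3% of all genes.

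Of the 5 receptor SMAD genes, 1 rose and 1 fell, where 8.37% of all genes were called in each direction. SMAD3, of the TGF-β and activin branch, rose, and SMAD9 (SMAD8), of the BMP branch, fell. SMAD3 had signals of 9.33, 9.49, 9.32 and 9.36 in OVCAR-8R and of 7.51, 7.66, 7.57 and 7.62 in OVCAR-8, and rose by 1.79 (0.07, adjusted p = 3.38e-08), or 3.45-fold. SMAD9 had signals of 6.79, 6.13, 6.67 and 6.52 in OVCAR-8R and of 8.17, 7.89, 8.23 and 8.10 in OVCAR-8, and fell by 1.57 (0.14, adjusted p = 8.72e-06). Neither gene's lines overlapped.

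The rest of the receptor SMADs were not called. SMAD1 and SMAD5, of the BMP branch, had differences of -0.71 (0.12, adjusted p = 0.000851) and -0.72 (0.10, adjusted p = 0.000249), and were lower on each OVCAR-8R array than on each OVCAR-8 array. SMAD2, of the TGF-β branch, had a difference of 0.29 (0.08, adjusted p = 0.0155), and its other probeset gave 0.01 (0.09). The shared partner SMAD4 had a difference of 0.61 (0.08, adjusted p = 8.68e-05). All 3 BMP-branch SMAD genes thus lay lower and both TGF-β-branch genes lay higher or level in OVCAR-8R, 1 of each beyond 2-fold. Whether the branches differed as groups was not tested.

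**Figure D2:**
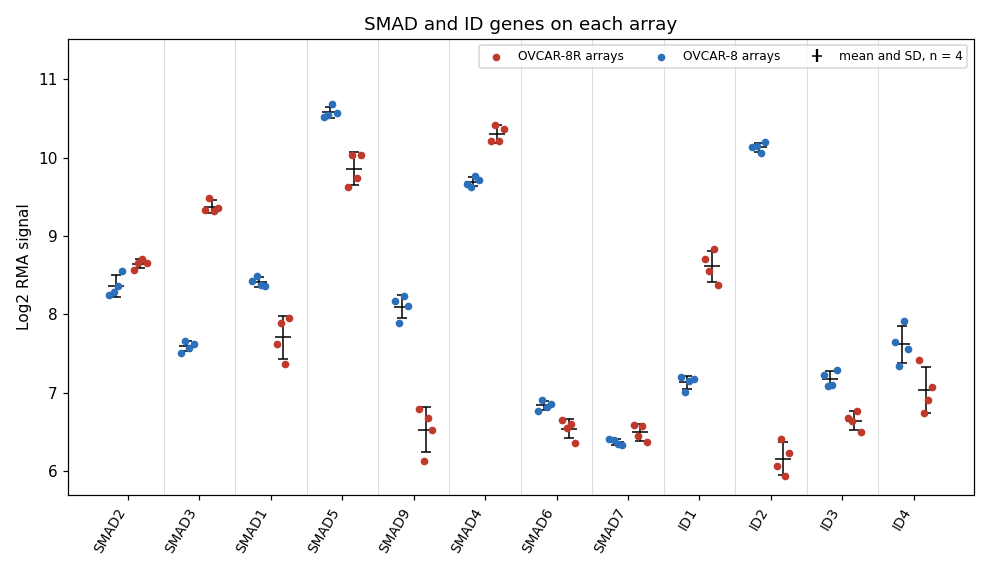
Log2 RMA signal (vertical axis) of 8 SMAD genes and 4 ID genes per array, red for the 4 of OVCAR-8R and blue for the 4 of OVCAR-8; black marks give mean and SD by line. SMAD3 and ID1 were higher and SMAD9 and ID2 lower in OVCAR-8R, while the arrays of the lines overlap for SMAD7 and ID4. Heights compare arrays within a gene, not genes with each other.

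Of 7 intracellular inhibitors of the pathway, both SMURF ubiquitin ligase genes and TGIF1 rose (42.9%, against 8.37% of all genes). SMAD6, SMAD7, SKI and SKIL were not called. SMURF2, which marks SMADs and the TGF-β receptor for degradation, had signals of 12.16, 12.29, 12.09 and 12.40 in OVCAR-8R and of 10.16, 10.36, 10.30 and 10.25 in OVCAR-8. It rose by 1.97 (0.09, adjusted p = 6.69e-08), or 3.91-fold. SMURF1, first known for its action on SMAD1 and SMAD5, had signals of 9.33, 9.53, 9.37 and 9.57 in OVCAR-8R and of 7.62, 7.71, 7.79 and 7.95 in OVCAR-8, and rose by 1.68 (0.09, adjusted p = 3.43e-07). The lines were fully apart for both ligases.

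TGIF1, a nuclear corepressor of SMAD2 and SMAD3, had signals of 10.97, 11.20, 10.85 and 11.10 in OVCAR-8R and of 9.35, 9.20, 9.15 and 9.23 in OVCAR-8. It rose by 1.80 (0.09, adjusted p = 1.67e-07), and its 4 further probesets were called higher too, at 1.08, 1.79, 1.80 and 1.88. Of the related corepressors, SKIL (SnoN), itself induced by TGF-β, had a difference of 0.73 (0.10, adjusted p = 0.000175) and SKI one of 0.29 (0.08, adjusted p = 0.0129). SMAD7, the feedback inhibitor of the TGF-β receptor, had signals from 6.37 to 6.59 in OVCAR-8R and from 6.33 to 6.41 in OVCAR-8, with a difference of 0.12 (0.07, adjusted p = 0.203). SMAD6, which inhibits BMP receptors, had a difference of -0.29 (0.08, adjusted p = 0.0121). SMAD7 arrays of the 2 lines overlapped, so a difference was not resolved for it with 4 arrays per line.

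ID1 and ID2 went in opposite directions. The ID genes encode helix-loop-helix proteins that bind E-box transcription factors and keep them off DNA, and they are classic BMP targets. ID2 had signals of 6.06, 6.41, 5.93 and 6.23 in OVCAR-8R and of 10.13, 10.15, 10.06 and 10.20 in OVCAR-8. It fell by 3.98 (0.11, adjusted p = 2.39e-09), a 15.7-fold difference, which ranked 20 among the decreases of all genes tested. ID1 had signals of 8.70, 8.55, 8.83 and 8.37 in OVCAR-8R and of 7.20, 7.01, 7.15 and 7.17 in OVCAR-8, and rose by 1.48 (0.10, adjusted p = 1.51e-06), or 2.80-fold. For both genes the lines did not overlap. ID3 and ID4 had differences of -0.53 (0.08, adjusted p = 0.000478) and -0.58 (0.16, adjusted p = 0.0126), under 2-fold, and the ID4 arrays of the 2 lines overlapped.

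Secreted antagonists held the largest increase of the members. GREM1 encodes gremlin 1, which binds BMP2, BMP4 and BMP7 and blocks them. Its signals were 10.30, 10.48, 10.22 and 10.31 in OVCAR-8R and 6.41, 6.28, 6.34 and 5.94 in OVCAR-8. The difference of 4.09 (0.11, adjusted p = 2.75e-09) was 17-fold and ranked 75 among the increases of all genes tested. NOG (noggin) and CHRD (chordin), which also bind BMPs, had differences of -0.78 (0.14, adjusted p = 0.00115) and 0.12 (0.11, adjusted p = 0.424), and BMPER, an extracellular BMP regulator, one of 0.86 (0.07, adjusted p = 5.85e-06). GREM1 was thus the BMP antagonist of the list that passed the call, and NOG lay lower in OVCAR-8R without overlap.

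Among follistatin genes, FSTL3 and FSTL1 rose and FST did not pass the 2-fold threshold. FSTL3, which binds activin and is induced by TGF-β, had signals of 10.10, 9.97, 9.99 and 9.77 in OVCAR-8R and of 8.01, 7.82, 7.64 and 7.63 in OVCAR-8. It rose by 2.18 (0.11, adjusted p = 1.39e-07), or 4.54-fold. FSTL1, a secreted glycoprotein that has been reported to bind BMP4, had signals of 11.27, 11.29, 11.29 and 11.35 in OVCAR-8R and of 9.64, 9.73, 9.61 and 9.61 in OVCAR-8, and rose by 1.65 (0.06, adjusted p = 2.89e-08). FST, the activin-binding follistatin, had a difference of 0.27 (0.08, adjusted p = 0.0147). For all 3, OVCAR-8R lay above OVCAR-8 without overlap, as it did for 27.3% of all genes.

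**Figure D3:**
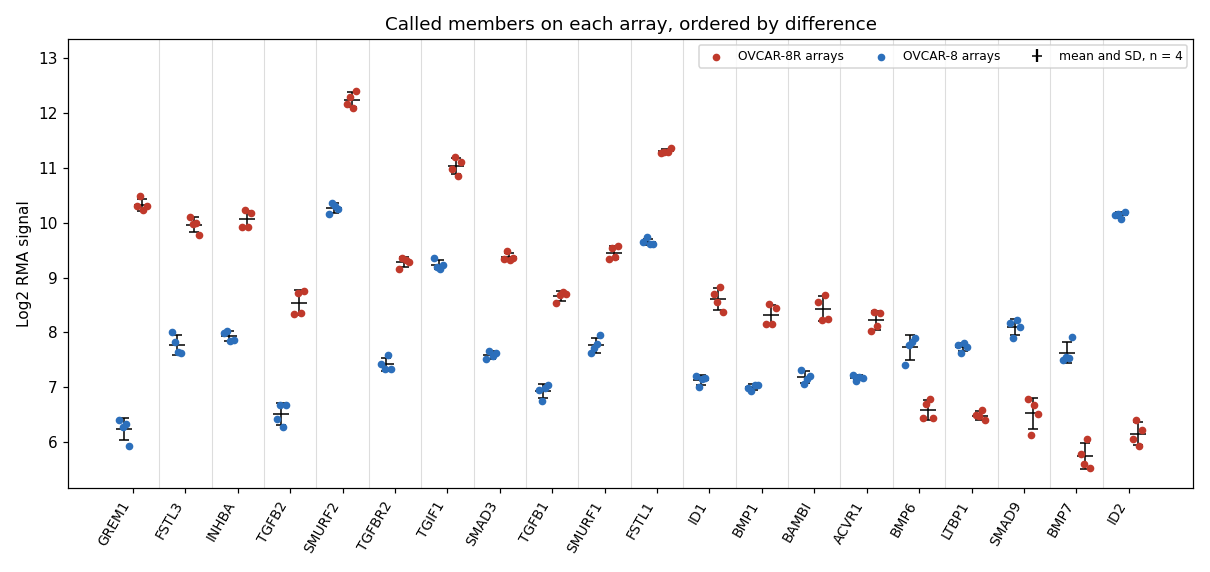
Log2 RMA signal (vertical axis) of the 20 called members per array, red for the 4 of OVCAR-8R and blue for the 4 of OVCAR-8, black marks giving mean and SD by line. Genes run from GREM1 (difference 4.09) to ID2 (-3.98). The lines do not overlap for any of the 20, which were picked by their difference, and for 56.8% of all genes.

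The promoters of 5 members are shown because they carry the widest differences (GREM1 and ID2), the opposite ID gene (ID1), and the most matches to a SMAD motif among members that rose (BAMBI) or the only match to the SMAD palindrome (SMAD6). The sequences are those of RefSeq for GRCh38.p14, from 250 bases before to 50 bases after the start of each gene, and 48 of the 56 members had one. The letters searched, on both strands, were CAGACA (the CAGA box of SMAD3 and SMAD4), GGCGCC (a GC-rich site of SMAD1 and SMAD5, its own complement) and GTCTAGAC (the SMAD palindrome). In the promoters shown, no base lay in 2 motifs. Capitals mark matches, and a line without capitals holds none of the 3.
GREM1 (chr15:32717754-32718053, plus strand): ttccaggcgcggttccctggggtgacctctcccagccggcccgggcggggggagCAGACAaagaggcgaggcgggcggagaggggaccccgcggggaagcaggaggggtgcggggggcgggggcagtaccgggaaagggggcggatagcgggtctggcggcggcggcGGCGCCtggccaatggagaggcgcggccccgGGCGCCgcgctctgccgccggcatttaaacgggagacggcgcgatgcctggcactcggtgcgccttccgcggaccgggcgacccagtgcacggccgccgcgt
ID2 (chr2:8681806-8682105, plus strand): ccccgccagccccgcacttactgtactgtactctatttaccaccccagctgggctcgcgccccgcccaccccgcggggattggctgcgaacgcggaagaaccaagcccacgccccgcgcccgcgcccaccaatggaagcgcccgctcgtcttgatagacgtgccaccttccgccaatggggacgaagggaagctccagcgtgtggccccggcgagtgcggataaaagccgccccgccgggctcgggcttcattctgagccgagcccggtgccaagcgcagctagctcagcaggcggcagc
ID1 (chr20:31605039-31605338, plus strand): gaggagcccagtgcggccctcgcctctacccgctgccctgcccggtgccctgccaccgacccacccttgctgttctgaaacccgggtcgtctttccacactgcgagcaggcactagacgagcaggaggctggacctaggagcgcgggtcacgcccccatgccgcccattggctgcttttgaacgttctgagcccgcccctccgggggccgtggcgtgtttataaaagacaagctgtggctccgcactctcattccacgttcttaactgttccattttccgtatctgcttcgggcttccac
BAMBI (chr10:28677271-28677570, plus strand): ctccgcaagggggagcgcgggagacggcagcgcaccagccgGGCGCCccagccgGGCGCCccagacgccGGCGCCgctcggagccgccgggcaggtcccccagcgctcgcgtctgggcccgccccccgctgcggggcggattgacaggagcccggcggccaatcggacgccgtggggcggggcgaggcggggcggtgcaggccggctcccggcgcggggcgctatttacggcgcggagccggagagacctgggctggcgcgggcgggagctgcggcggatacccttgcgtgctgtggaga
SMAD6 (chr15:66701986-66702285, plus strand): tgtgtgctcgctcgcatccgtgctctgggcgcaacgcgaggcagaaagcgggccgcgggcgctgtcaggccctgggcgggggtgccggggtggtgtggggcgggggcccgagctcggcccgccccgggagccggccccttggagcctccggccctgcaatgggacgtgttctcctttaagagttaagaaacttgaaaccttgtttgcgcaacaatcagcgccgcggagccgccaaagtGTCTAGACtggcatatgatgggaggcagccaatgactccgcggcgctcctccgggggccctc

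The GREM1 window holds CAGACA 196 bases before the start and GGCGCC at 83 and 52 bases before it. BAMBI holds GGCGCC at 209, 196 and 181 bases before its start, and SMAD6 holds GTCTAGAC at 12 bases before its own. CAGACA stood in 9 of the 48 member promoters (18.8%) and in 16.8% of all 27305 promoters. GGCGCC stood in 17 of 48 (35.4%) and in 19.0% of all, and GTCTAGAC in 1 of 48 and in 0.201% of all. Of 14 promoters of members that rose, 6 held CAGACA and 6 held GGCGCC, and of 4 promoters of members that fell, 0 held either. With only 4 promoters, at those shares over all promoters, the 0 does not show a difference. The 6 of 14 was not tested for either motif, and the shares do not allow for the base composition of the promoters. Members that were not called held the motifs as well, for example LTBP4 and INHA (CAGACA) and ACVR1B and INHBB (GGCGCC). The CAGACA matches among members that rose were in GREM1, TGFB2, INHBA, ACVR1, SMURF2 and TGIF1. A match is a stretch of letters in this window and does not show that a SMAD binds there.

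Without a limit on size, 31 members passed the adjusted p as higher (27.6% of all genes did) and 15 as lower (30.0% of all genes). Together 46 of 54 passed, against 57.6% of all genes. The arrays of the lines did not overlap for 45 of the 54, against 56.8% of all genes, with OVCAR-8R above in 30 (27.3% of all genes) and below in 15 (29.5% of all genes). Within a line, members varied little. The SD over 4 arrays had a median of 0.13 in OVCAR-8R, with the highest at BMP2 (0.29), and of 0.12 in OVCAR-8, with the highest at ID4 (0.24). In OVCAR-8R, arrays 1 and 3 both lay above or both below arrays 2 and 4 for 40 of the 54 members (74.1%), and for 67.6% of all genes. The split thus ran through the whole table. limma treated the 4 arrays as independent, so its p-values do not allow for this split between the pairs. The gap between these pairs had a median size of 0.19 over the members and was widest for BMPR2 (0.50). With arrays 1 and 3 only, 19 members were called, and with arrays 2 and 4 only 21, of which 20 were the members called with all arrays.

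Other genes of the pathway were counted from a second list of 84 genes, of which 69 were tested. In OVCAR-8R, 9 rose (13%, against 8.37% of all genes) and 5 fell (7.25%, against 8.37%), and the median difference was 0.04. None of the 13 other ligand genes tested was called by limma (0 higher and 1 lower at an unadjusted p under 0.05), and their differences ran from -0.40 (GDF9) to 0.14 (BMP8B). LEFTY1, AMH and GDF15, for example, had differences of 0.01, 0.04 and -0.20.

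Extracellular regulators made up 7 of these 14 calls, out of 19 tested (36.8%, against 16.7% of all genes). ITGB8, the integrin subunit that with ITGAV releases TGF-β from its latent complex, had signals of 9.14, 9.90, 9.15 and 9.81 in OVCAR-8R and of 5.56, 5.71, 5.57 and 5.66 in OVCAR-8, and rose by 3.87 (0.18, adjusted p = 8.38e-08). ITGAV itself rose by 1.17 (0.08). CHRDL1, a chordin-like BMP antagonist, rose by 2.69 (0.09, adjusted p = 1.31e-08), and FBN1, the microfibril protein to which latent TGF-β complexes attach, by 2.05 (0.08). PCSK5 and PCSK6, proprotein convertases, fell by 1.49 (0.08) and 1.32 (0.12), and TLL1, a protease related to BMP1, fell by 1.35 (0.11). The OVCAR-8R signal of TLL1 lay in the lowest quartile, near background, where the size of a difference tends to be understated.

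Among the other receptors and co-receptors, CD109, a co-receptor that dampens TGF-β signalling, rose by 2.78 (0.08, adjusted p = 3.37e-09). ACVR1C (ALK7), a type I receptor for nodal and activin, fell by 1.87 (0.11, adjusted p = 4.39e-07). Of 30 intracellular regulators tested, 4 rose and 1 fell, a called share of 16.7% that equals the 16.7% of all genes. HIPK2, a nuclear kinase, rose by 1.29 (0.12), and the deubiquitinase gene UCHL5 fell by 1.30 (0.11). With treat, the calls of ITGAV, TLL1, PCSK6, HIPK2 and UCHL5 ended.

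Known target genes of the 2 branches were counted from lists written from general knowledge, at a time when earlier results of these data were known. The paper had already reported FN1 and TGFBI as higher in OVCAR-8R, so the counts are a description only. Of 33 TGF-β target genes tested, 14 rose (42.4%, against 8.37% of all genes) and 0 fell, with a median difference of 0.62. At an unadjusted p under 0.05 in limma, 2 were lower, and the Student's test of the methods also called 0 lower. FN1 (fibronectin) had the largest, at 5.86 (0.13, adjusted p = 8.46e-10), followed by TGFBI at 5.48 (0.10), CCN1 at 4.23 (0.09), THBS1 at 3.77 (0.07), CCN2 at 3.39 (0.15) and ANGPTL4 at 3.06 (0.11). CCN1, CCN2 and THBS1 are also known targets of YAP1 and TEAD factors. TAGLN, ACTA2 and SNAI2, likewise on the list, had differences of 0.45, 0.02 and 0.33. The 19 that were not called included 11 that passed the adjusted p alone as higher and 2 as lower.

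Of 16 BMP target genes tested besides the ID genes, 3 fell (18.8%, against 8.37% of all genes) and 0 rose, with a median difference of -0.14. At an unadjusted p under 0.05 in limma, 2 were higher, and the Student's test of the methods likewise called 0 higher. HEY1, a repressor that Notch signalling also induces, had signals of 6.04, 5.70, 5.93 and 5.87 in OVCAR-8R and of 10.72, 10.47, 10.82 and 10.91 in OVCAR-8, and fell by 4.85 (0.11, adjusted p = 1.00e-09). The homeobox gene MSX2 had signals of 5.85, 6.14, 5.55 and 6.04 in OVCAR-8R and of 8.21, 8.41, 8.44 and 8.64 in OVCAR-8, and fell by 2.53 (0.14, adjusted p = 2.82e-07). TBX3, a T-box repressor, fell by 1.34 (0.14), which did not pass treat. ATOH8 and HAMP, which BMPs induce in other tissues, had differences of -0.09 (0.13) and 0.06 (0.07). Of the 20 BMP targets with the ID genes included, 1 rose (ID1) and 4 fell (ID2, HEY1, MSX2 and TBX3).

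**Figure D4:**
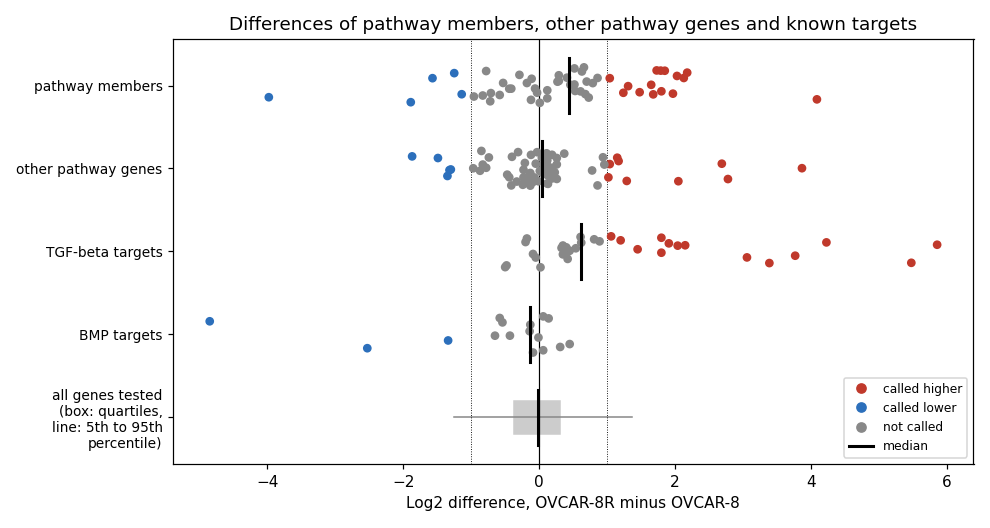
Log2 difference (OVCAR-8R minus OVCAR-8, horizontal axis) of each gene tested among the 54 pathway members, 69 other pathway genes, 33 TGF-β targets and 16 BMP targets, one dot per gene, with the median as a black bar. Red dots were called higher and blue dots lower, dotted lines mark 2-fold, and the box gives all 15931 genes tested. The medians are 0.44, 0.04, 0.62 and -0.14, and -0.01 over all genes.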

How the data were processed

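Human Gene 1.0 ST arrays (Affymetrix) were run on RNA of 8 spheroid samples, and the authors computed intensity values by RMA (background correction, quantile normalization, probe summary) in Expression Console (version 1.1). Deposited intensities are linear and unfiltered, with 33297 probesets, and log2 was taken here. Quantile normalization removes any overall difference between lines. No source used here gives the genome build of the array annotation. Probesets with 1 gene (19460) were named, 19429 of them found by identifier in the RefSeq table of GRCh38.p14. As in the methods, probesets with a mean in the bottom 25% for each line were dropped (log2 limits 5.11 in OVCAR-8R and 5.16 in OVCAR-8), which kept 25628. The comparison used limma 3.58.1 (lmFit, eBayes) under R 4.3.3, without a replicate block, adjusted over the probesets kept. The fit was tested on simulated data.

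Members and lists were chosen with earlier results of these data known. All measured members are named, and up to 6 called genes per direction with the largest differences of each other list. Genes outside that rule (GDF9, BMP8B, LEFTY1, AMH, GDF15, TAGLN, ACTA2, SNAI2, ATOH8, HAMP and the lineage markers) were picked as examples with their values seen. Of the 9 other pathway genes that rose, 6 are named by that rule. Lists were counted, not tested. Precision is limited by the number of arrays, 4 a line. Alternatives were other filters, median centring, cyclic loess, an intensity trend, the methods' t-test, treat, no limit on size, the mean of all probesets, dropping single arrays and adding a replicate block. Single pairs of OVCAR-8R arrays were added after seeing the data.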

Additional observations from a re-analysis of the deposited data

Results flagged for a closer look

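In 4 of 148 sets of 4 arrays tested (each named gene in each line), 1 array stood apart from the other 3, its gap to the nearest, divided by the range, being above Dixon's critical value. Chance gives about 1 in 20. TGFB1 was lowest on OVCAR-8R array 1, at a log2 signal of 8.53 against 8.69 to 8.73 on the others. BMP7 was highest on OVCAR-8 array 4, at 7.92 against 7.50 to 7.56. Outside the members, ACVR1C was lowest on OVCAR-8 array 1, at 7.95 against 8.12 to 8.15, and UCHL5 was highest on OVCAR-8 array 4, at 10.22 against 9.85 to 9.89. The calls of all 4 genes were the same without the array in question.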

How the results depend on the processing

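Of the 20 called members, 15 kept their call and direction under all 20 alternatives and 5 lost it under at least 1 (LTBP1, BMP1, BMP6, ACVR1 and BAMBI, all under treat, with the further losses of BMP1 and ACVR1 given above). Dropping the limit on size, 1 of these alternatives, could not end a call by its design. With no limit on size, 31 of 54 members were higher and 15 lower, against 27.6% and 30.0% of all genes. The counts were 16 and 18 of 69 other pathway genes, 25 and 2 of 33 TGF-β targets and 1 and 7 of 16 BMP targets. With treat, 12 members were higher and 3 lower, and 4 and 2 of the other pathway genes, against 5.22% and 4.04% of all genes. Without each array in turn, 14 to 15 members were higher and 5 to 6 lower. The counts of the other lists moved by at most 1.5 times under the other alternatives. Uncalled members that changed sign were TGFBR1 (0.03 with cyclic loess, 0.01 with OVCAR-8R arrays 2 and 4 only) and, with arrays 1 and 3 only, BMP2 (0.06), INHA (0.09) and INHBE (-0.07). Without each array in turn, INHA ran from -0.08 to 0.03 and INHBE from -0.04 to 0.06. With cyclic loess 53.6% of all calls were higher, against 50%. Same-numbered arrays of the lines correlated in their deviations at 0.165, -0.323, -0.0515 and 0.443, so the numbers do not pair them. Across numbers, OVCAR-8 array 4 went with OVCAR-8R arrays 2 and 4 (0.383 and 0.443) and against 1 and 3 (-0.467 and -0.337). OVCAR-8 array 2 did the reverse (-0.323 and -0.324, then 0.353 and 0.276). OVCAR-8 arrays 1 and 3 ran from -0.144 to 0.165. The source of this shared pattern was not tested. With the replicate block 15 members were again higher and 5 lower, and 9 and 5 of the other pathway genes. The counts were 14 and 0 of the TGF-β targets and 0 and 3 of the BMP targets. Signals near background and 1 derived line limit the sizes and their reach.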
